A study of Homo sapiens with 4 samples.

Results

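The regions described here are 6 windows of human chromosome 19 that hold its clusters of KRAB zinc finger genes, together with the peaks of the transcription factor ELF5 inside them. A peak was a member if its summit lay in a window, which gave 412 of the 5532 peaks on chromosome 19 and of the 115384 peaks in the whole list. The cells were T47D, a human breast cancer cell line of luminal A type, grown without treatment in RPMI with serum and insulin, and ELF5 was mapped in them by ChIP-seq. The series held 3 ELF5 ChIP samples, immunoprecipitated with 1 antibody product, and 1 input sample, and the authors' deposited list combined ChIP samples into 1 set of peaks with no value per sample. All peaks therefore come from 1 unmodified line in 1 condition. With no replicate values there is no replicate error to give, and peaks were described, not tested. Positions refer to the hg19 build, with the first base as 1. The 95% intervals below cover counting error only. They treat peaks and promoters as independent, although neighbouring peaks are not and promoters of genes duplicated in tandem may not be.

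KRAB zinc finger proteins are the largest family of human transcription factors. Each carries a KRAB domain, which recruits the co-repressor TRIM28, and a row of C2H2 zinc fingers, which reads DNA. Many of them bind transposable elements and bring about silent chromatin there, marked by methylation of histone H3 at lysine 9. The family grew by tandem duplication, and much of it stands in dense rows of paralogs on chromosome 19, with many of the duplicated 3' exons themselves under that silencing mark. ELF5 is an ETS factor of luminal and alveolar epithelium, and ETS factors bind DNA around the core GGAA, often preceded by CC. ETS sites are a common element of promoters in CpG islands.

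The windows, from the short arm to the end of the long arm, were called by their bands. The distal 19p12 cluster runs from 19900 to 20640 kb and begins in 19p13.11. The proximal 19p12 cluster runs from 20860 to 24500 kb and ends in the centromeric band 19p11. The 19q13.12 cluster runs from 36600 to 38350 kb, the 19q13.31 cluster from 44300 to 45000 kb, the 19q13.41-q13.42 cluster from 52300 to 54000 kb, and the 19q13.43 cluster from 56800 to 59100 kb. Together they cover 10.83 Mb. An hg19 annotation was not used here, so the gene content of the windows was not checked and peaks were not assigned to genes. Other rows of zinc finger genes, such as those of 19p13.2, lie outside the windows and count with the rest of the chromosome.

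Because ETS sites are known from promoters, the promoters of clustered zinc finger genes were read from RefSeq (GRCh38.p14) for the strong form of the ETS core, CCGGAAG, on both strands. These genes were defined by name and neighbourhood alone, with no limit to the windows. They were the 241 protein-coding chromosome 19 genes with a zinc finger symbol (ZNF, ZFP, ZIM, ZIK or ZSCAN) next to another such gene, and 208 of them had a promoter of 300 bases in the table, from 250 bases before the start to 50 after it. The motif was present in 93 of these promoters, 44.7% (Wilson 95% interval 38.1 to 51.5). It was present in 13.408% (11.4 to 15.7) of the promoters of the other protein-coding genes of chromosome 19 and in 14.2% (13.7 to 14.8) of all 15843 protein-coding promoters in the table. The contrast depends on the letters searched. The bare core GGAA was in 99.5% of promoters of clustered zinc finger genes and in 94.8% of the others on the chromosome. Shares so near to all promoters leave little room for a contrast. The promoters of clustered zinc finger genes had a median G+C content of 59.3%, against 64% in the other promoters of the chromosome. A match describes the letters of a promoter and is no evidence of binding there.

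The 4 promoters with the most matches in their 250 upstream bases, with ties broken by symbol, are shown to let the motif be seen in its setting. Each reads 5′ to 3′ on the strand of its gene and stops at the base before the start. Capitals mark CCGGAAG or its reverse complement CTTCCGG.
ZNF256: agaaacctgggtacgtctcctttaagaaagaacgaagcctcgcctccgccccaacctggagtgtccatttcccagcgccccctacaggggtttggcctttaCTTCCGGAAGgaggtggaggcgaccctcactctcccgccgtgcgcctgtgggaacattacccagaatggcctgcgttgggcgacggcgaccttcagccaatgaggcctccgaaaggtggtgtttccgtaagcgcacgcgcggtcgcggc
ZNF324: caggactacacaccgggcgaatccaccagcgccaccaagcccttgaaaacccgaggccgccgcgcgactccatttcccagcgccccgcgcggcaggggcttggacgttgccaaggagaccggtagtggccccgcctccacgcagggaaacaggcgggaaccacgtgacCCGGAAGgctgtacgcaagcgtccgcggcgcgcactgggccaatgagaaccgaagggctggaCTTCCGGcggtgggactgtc
ZNF582: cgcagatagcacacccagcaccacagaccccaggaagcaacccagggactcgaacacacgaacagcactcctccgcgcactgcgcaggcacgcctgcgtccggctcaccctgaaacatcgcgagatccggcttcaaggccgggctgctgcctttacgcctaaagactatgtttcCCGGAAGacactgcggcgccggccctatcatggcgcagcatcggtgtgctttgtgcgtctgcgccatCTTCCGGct
ZNF773: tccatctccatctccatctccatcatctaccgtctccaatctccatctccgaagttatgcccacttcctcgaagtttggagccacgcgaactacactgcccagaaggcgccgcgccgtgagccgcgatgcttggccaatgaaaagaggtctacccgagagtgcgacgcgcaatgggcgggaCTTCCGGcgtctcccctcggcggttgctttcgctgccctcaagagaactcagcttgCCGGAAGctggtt

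Of the 208 promoters 5 held 2 matches upstream of the start, these 4 among them, and none held more. A further 59 held 1 match there. The 93 promoters counted above also include some whose only match extends past the start. In ZNF256 the matches overlap on opposite strands and form a palindrome. In ZNF324 and ZNF582 the upstream match reads in the direction of the gene and the one nearer to the start against it, and in ZNF773 the order is the other way round. In the RefSeq order of protein-coding genes, ZNF324 and ZNF446 are followed by SLC27A5, ZBTB45 and then TRIM28, the gene of the co-repressor that KRAB domains recruit.

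The motif was unevenly spread over the rows of zinc finger genes. Of the uninterrupted runs of at least 10 such genes, the run from ZNF737 to ZNF681 had it in 18 of 21 promoters, 85.7% (65.4 to 95.02). The run from ZNF772 to ZNF256 had it in 16 of 20, 80% (58.4 to 91.9), and the run from ZNF766 to ZNF83 in 6 of 8, 75% (40.9 to 92.9). The run from ZNF565 to ZNF793 had it in 7 of 23, 30.4% (15.6 to 50.9), and the run from ZNF283 to ZNF180 in 6 of 16, 37.5% (18.5 to 61.4). The run from ZNF577 to ZNF836 had it in 3 of 9, 33.3% (12.1 to 64.6), and the run from ZNF699 to ZNF846 in 2 of 9, 22.2% (6.32 to 54.7). The lowest share was in the run from ZNF627 to ZNF791, with 1 of 23 promoters, 4.35% (0.772 to 20.99). The intervals of the 3 runs with the highest shares lie above that of the run with the lowest. They count each promoter as independent, which promoters of genes duplicated in tandem may not be, so the difference between runs was not tested. This split into runs was chosen after the share over all clustered genes had been seen. The runs were not placed against the windows. Rows outside the windows, such as those of 19p13.2, were not left out, so these shares do not describe the windows alone.

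ELF5 peaks were sparse in the zinc finger clusters, but strong ones made up a large share of them. The clusters held 38.0 peaks per Mb (34.5 to 41.9), against 115.7 per Mb (112.6 to 118.9) in the rest of chromosome 19 outside the centromeric bands. The ratio was 0.329 (0.297 to 0.364). Strong peaks, the strongest 10% of the whole list by fold, begin at a fold of 11.99 and are 10% of the list by that choice. In the clusters 147 of 412 peaks were strong, 35.7% (31.2 to 40.4), against 14.9% of the 5120 remaining peaks of the chromosome. The difference was 20.8 percentage points (16.2 to 25.7). How reads that map to several paralogs were handled is not given. Its bearing on the densities, distances and shares of the clusters was not tested.

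Set against length, the shortfall in the clusters was much larger for weaker peaks than for strong ones. Strong peaks numbered 13.6 per Mb (11.5 to 15.95) in the clusters and 17.2 per Mb (15.99 to 18.5) in the rest of the chromosome, a ratio of 0.789 (0.657 to 0.943). The other peaks numbered 24.5 per Mb (21.6 to 27.6) in the clusters and 98.5 per Mb (95.6 to 101.5) in the rest, a ratio of 0.248 (0.219 to 0.281). The clusters thus held 1.80 other peaks for each strong one, against 5.73 in the rest of the chromosome.

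The density ratio climbed with the fold from a fold of 3 upwards, after 0.232 (0.162 to 0.323) below it. Among peaks with a fold of 3 to 4 the clusters had 7.48 peaks per Mb and the rest 37.4, a ratio of 0.1997 (0.158 to 0.250). From a fold of 6 to the threshold for strong peaks the ratio was 0.347 (0.273 to 0.436). Between that threshold and a fold of 20 it was 0.699 (0.532 to 0.906), and between 20 and 30 it was 0.730 (0.517 to 1.01). At folds of 30 or more the clusters held 35 peaks and the rest 117, which are 3.23 and 2.65 per Mb, a ratio of 1.22 (0.812 to 1.79). At that strength the densities of clusters and rest were not told apart at these counts. Of the 35 peaks in the clusters, 19 lay in the 19q13.41-q13.42 cluster and none in proximal 19p12. The ratio in this class thus rests largely on the 19q13.41-q13.42 cluster.

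**Figure D1:**
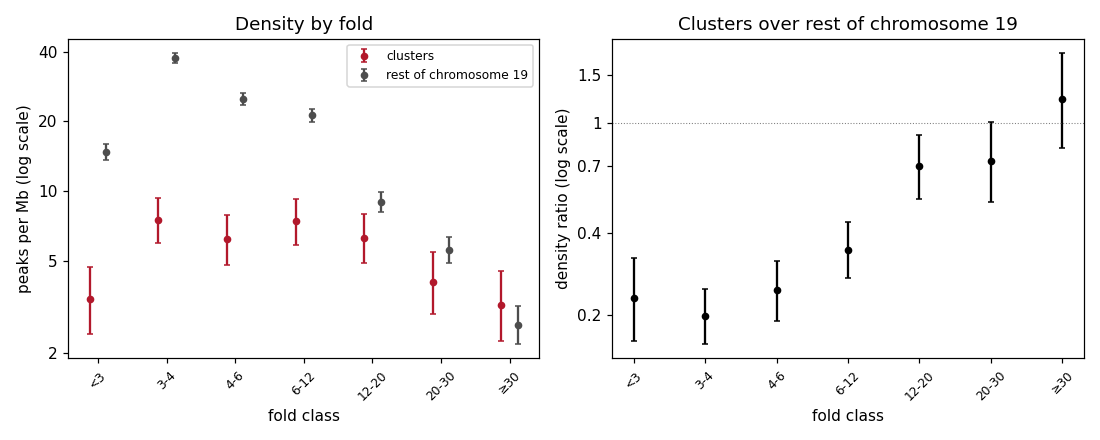
Peaks per Mb (left, log scale, exact Poisson 95% intervals) and the ratio of clusters to rest of chromosome 19 (right, log scale, exact conditional intervals) in 7 classes of fold enrichment. The ratio is lowest, 0.1997, at folds of 3 to 4 and reaches 1.22 at folds of 30 or more. Of the 35 peaks of the clusters in that top class, 19 lie in the 19q13.41-q13.42 cluster.

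The authors' fold, in the seventh column of the list, was higher in the clusters. The file gives it no unit, and it behaves as a ratio of ChIP pileup to local background. The median fold was 7.08 (6.07 to 8.51) in the clusters, with quartiles of 3.67 and 17.7, against 4.24 (4.24 to 4.34) in the rest of the chromosome, with quartiles of 3.37 and 7.85. The range was 2.02 to 50.1 in the clusters and 1.83 to 66.3 in the rest, so the highest folds of the chromosome were outside the windows. Of the 20 highest folds on chromosome 19, 6 lay in the clusters, which is 30%, and of the 100 highest 24 did, while the clusters held 7.45% of all its peaks. Within the strong class the fold differed little, with a median of 20.4 (19.1 to 23.1) in the clusters and 19.6 (18.8 to 20.1) in the rest.

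The fold is a ratio, and both its parts were recovered from the authors' fold and p. The median local background was 2.03 fragments in the clusters and 2.08 in the rest. The median pileup at the peak was 27 fragments (21 to 33) in the clusters and 15 (15 to 15) in the rest. The higher fold in the clusters stood beside more ChIP fragments over a like recovered background. The lowest recovered background was 1.81 in the clusters and in the rest, and its lower quartile was 1.82 in the clusters and 1.89 in the rest. Values so near to a shared minimum may not show lower local coverage, so whether the local backgrounds were alike was not tested. Within the third of chromosome 19 peaks of highest background, the median fold was 8.39 (6.39 to 10.0) in the clusters and 4.34 (4.12 to 4.57) in the rest. In the third of lowest background it was 6.18 (5.19 to 8.44) in the clusters and 4.24 (4.24 to 4.24) in the rest.

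Peaks in the clusters were wider over all folds, but not at a like fold. Among peaks over a background above the median of the list, the ratio of median widths was 1.19 with an interval of 0.881 to 1.64, which includes 1. The median width was 344 bp (304 to 410) in the clusters, with quartiles of 203 and 652 bp, against 252 bp (246 to 260) in the rest, with quartiles of 170 and 453 bp. Width goes with fold in this list, and both come from the same reads. At folds of 3 to 4 the median width was 179 bp (156 to 205) in the clusters and 174 bp (171 to 178) in the rest. At folds from 6 to the strong threshold it was 412.5 bp (352 to 545) in the clusters and 436 bp (419 to 454) in the rest. At folds of 20 to 30 the clusters had narrower peaks, with 681.5 bp (610 to 763) against 846 bp (788 to 908) in the rest. Over all strong peaks the median width was 686 bp (642 to 733) in the clusters and 751 bp (721 to 785) in the rest.

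The extremes of width differed as well. The widest peak in the clusters covered 1578 bp and none reached 2000 bp, while the rest of the chromosome had 22 peaks of at least 2000 bp, up to 5845 bp. Peaks of at least 1000 bp were 5.58% of the clusters' peaks and 5.38% of the others. The smallest width of the list, 135 bp, was found at 28 peaks of the clusters, 6.80% (4.74 to 9.65), against 8.79% of the peaks remaining on the chromosome and 9.27% of the whole list. An authors' q of 0.05 or more was found at 5.83% (3.95 to 8.52) of the clusters' peaks, against 7.89% of the peaks remaining on the chromosome and 12.5% of the whole list. For both shares the 95% interval of the difference between clusters and rest included 0, from -4.21 to 0.943 percentage points for the smallest width and from -4.09 to 0.732 for q.

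**Figure D2:**
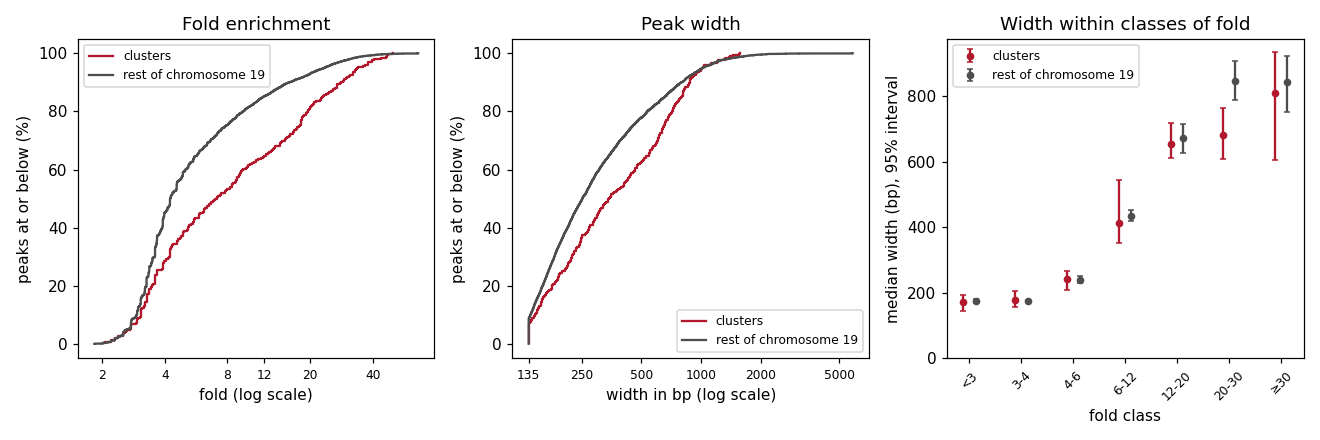
Cumulative distributions of fold enrichment (left) and peak width (middle), both on log scales, and the median width within classes of fold (right, order-statistic 95% intervals). Over most of their length the clusters' curves lie to the right of those of the rest of chromosome 19, with median folds of 7.08 and 4.24. At the upper end the highest folds and the widest peaks belong to the rest. Within classes of fold the widths lie close together except at folds of 20 to 30.

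Peaks in the clusters stood far apart. Neighbouring summits were a median of 12172 bp apart (8330 to 18454) in the clusters and 3096.5 bp (2923 to 3312) apart in the rest, a ratio of 3.93. Without the 19q13.43 cluster the ratio was 7.12. Distances of at most 10 kb made up 47.04% (42.2 to 51.9) in the clusters, against 77.3% (76.2 to 78.5) in the rest. Distances over 50 kb made up 15.02% in the clusters and 2.23% in the rest. At the short end the intervals overlapped, with 22.9% (19.1 to 27.2) of distances within 1 kb in the clusters and 25.3% (24.1 to 26.5) in the rest.

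Distances over 1 kb and up to 10 kb made up 24.1% (20.2 to 28.5) in the clusters, against 52.1% (50.7 to 53.5) in the rest. Neighbouring strong peaks were 39400 bp apart in the median (32509 to 45415) in the clusters and 27043 bp (22890 to 29796) in the rest. Only 7.80% of the distances between neighbouring strong peaks were within 10 kb in the clusters, against 26.5% in the rest. Of the strong peaks in the clusters 14.3% (9.54 to 20.9) had another strong peak within 10 kb, against 42.1% (38.6 to 45.6) of those in the rest. A weaker peak within 1 kb was about as common beside strong peaks of either kind, at 29.3% (22.5 to 37.1) in the clusters and 35.5% (32.2 to 38.99) in the rest.

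Many strong peaks of the clusters were the only ELF5 peak of their neighbourhood. Joining summits within 10 kb, where both lay in the same window, gave 221 groups in the clusters, of which 123 were single peaks. Single peaks were 29.9% of the peaks in the clusters and 7.67% in the rest. Of the strong peaks 62 of 147, 42.2%, were single in the clusters, against 75 of 760, 9.87%, in the rest. Of the weaker peaks, 23.0% were single in the clusters and 7.28% in the rest. Groups of 10 or more peaks held 11.9% of the clusters' peaks and 44.8% of those in the rest, and the largest group had 18 peaks in the clusters and 54 in the rest. The weaker peaks lay at about the same distance from the nearest strong one, with medians of 12243 bp (7897 to 17129) in the clusters and 14033.5 bp (13301 to 14962) in the rest.

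**Figure D3:**
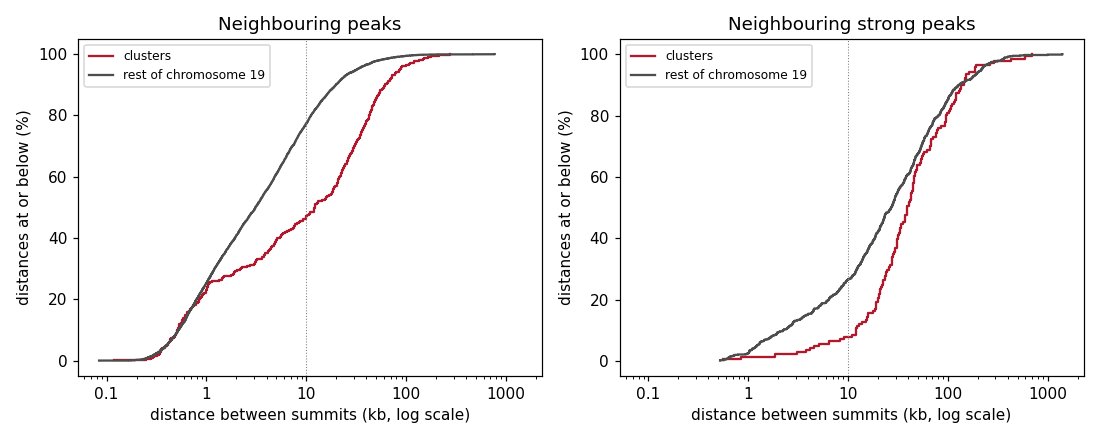
Cumulative distribution of the distance between neighbouring summits within the same window or the same stretch between windows (log scale), for all peaks (left) and for strong peaks (right); the dotted line marks 10 kb. At or below 10 kb lie 47.04% of the distances between all peaks in the clusters and 77.3% in the rest of chromosome 19.

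Peaks were sparse along most of the length of the clusters, but not at the end of 19q13.43. In 40 bins of 250 kb within the clusters the median was 8 peaks (quartiles 4.75 and 11.25, range 1 to 34), against 30 peaks (quartiles 13 and 41.75, range 0 to 88) in 174 bins of the rest. Of the 40 bins in the clusters 8 held more peaks than the lower quartile of the rest. The last 3 bins of 19q13.43, from 58300000 to 59050000, held 30, 23 and 34 peaks, near the median of the rest. The median number of strong peaks per bin was 3 in the clusters and 4 in the rest. A bin without any strong peak was found 5 times in the clusters, 12.5% of bins, and 17 times in the rest, 9.77%. The rest is not uniform either. Its bands with at least 100 peaks ran from 31.1 peaks per Mb in 19q12, which stains as variable heterochromatin, to 186.8 per Mb in 19p13.3.

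In 19q12, with 118 peaks at a density below that of the clusters, 8.47% of peaks were strong. In 19q13.11, with 61.6 peaks per Mb, 16.2% were strong. Over the bands with at least 100 peaks, the share ran up to 18.5%, in 19q13.42. Of the smaller bands, 19q13.31 outside its window had 53.6 peaks per Mb and a share of 18.6%. Shorter stretches of the rest came near the clusters in density and in their share of strong peaks, among them a pair in 19p13.2 picked after the counts were seen. Between 9 and 10 Mb that band held 36 peaks, of which 15 were strong, 41.7% (27.1 to 57.8). Between 12 and 12.75 Mb it held 36 peaks, of which 13 were strong, 36.1% (22.5 to 52.4). The densities were 36 and 48 peaks per Mb, against 38.0 (34.5 to 41.9) in the clusters, so the second stretch was denser than the clusters. Rows of zinc finger genes also lie in 19p13.2, outside the windows. Whether these stretches coincide with those rows was not checked, so they cannot be taken as sequence without such genes.

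The 6 clusters differed in density, above all between the arms. The 19p clusters together held 17.4 peaks per Mb (13.7 to 21.7), against 138.2 (133.1 to 143.5) in the rest of 19p. The 19q clusters held 52.1 per Mb (46.7 to 57.97), against 96.9 (92.997 to 100.9) in the rest of 19q. The 19p clusters had 6.16 strong peaks per Mb (4.06 to 8.97) against 19.6 (17.7 to 21.7) in the rest of 19p, a ratio of 0.314 (0.204 to 0.464). The 19q clusters had 18.6 (15.4 to 22.2) against 15.2 (13.6 to 16.8) in the rest of 19q, a ratio of 1.23 (0.990 to 1.51), whose interval includes 1. Weaker peaks were fewer in the clusters on both arms, with ratios of 0.0943 (0.0696 to 0.125) on 19p and 0.410 (0.354 to 0.472) on 19q. The split by arm was chosen after the values of the single clusters had been seen.

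**Figure D4:**
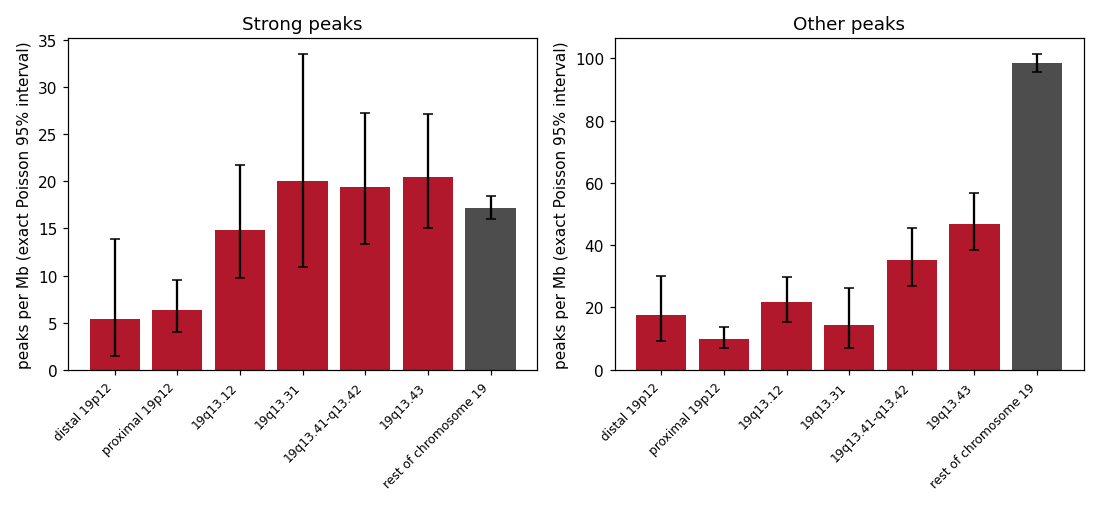
Density of strong peaks (left) and of other peaks (right) in each zinc finger cluster and in the rest of chromosome 19, with exact Poisson 95% intervals. The 4 clusters of 19q have 14.9 to 20.4 strong peaks per Mb, around the 17.2 of the rest, and all 6 clusters lie below the rest in other peaks.

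The proximal 19p12 cluster, the longest window, was the emptiest. It held 59 peaks in 3.64 Mb, 16.2 per Mb (12.3 to 20.9), of which 23 were strong, 39.0% (27.6 to 51.7). Its strong peaks ended at a fold of 27.0, so that none reached 30. The highest covered 21949925 to 21950562 at a fold of 27.0 (interval 21.7 to 33.2), and its nearest neighbour was 68610 bp away. It was followed by 21511656 to 21512426, with a fold of 26.4 (21.8 to 31.6), and 24269769 to 24270378, with a fold of 24.6 (19.4 to 30.8). These intervals overlap, so their order was not resolved. The longest distance between neighbouring peaks in any cluster was found here, 274387 bp, between summits at 22123884 and 22398271.

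The distal 19p12 cluster held 17 peaks in 0.74 Mb, of which 4 were strong. A single peak was both its highest and its widest. It covered 1027 bp, 20162638 to 20163664, and its fold was 33.7 (27.5 to 40.8). With 17 peaks its share of strong ones, 23.5%, had an interval of 9.56 to 47.3 and was not told apart from that of the rest of the chromosome.

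The peak with the highest fold of all chromosome 19 lay between these 2 windows and is not a member. It covered 20747922 to 20748827 in 19p12, with a fold of 66.3 (57.6 to 76.0) from a pileup of 204 fragments over a background of 1.81. That background is the lowest in the list and also occurs in every cluster. It had rank 5 by fold in the whole list, and its nearest neighbour was 94723 bp away. The gap between the windows, 0.22 Mb long, held 3 peaks, of which 2 were strong. The remaining peak of the gap had a fold of 7.15.

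The 19q13.12 cluster held 64 peaks, 36.6 per Mb (28.2 to 46.7), with 26 strong ones, 40.6% (29.5 to 52.9). Its highest peak, at 36869493 to 36870514, had a fold of 47.6 (40.5 to 55.7) and stood 39400 bp from the nearest other summit. The next 2, at 37957708 to 37958643 and 37064002 to 37064810, had folds of 31.5 (27.0 to 36.5) and 30.3 (25.4 to 35.9), both below the interval of the first. At its centromeric edge lay 10 peaks in a row, each within 10 kb of the next, from 36604947 to 36641709, of which 3 were strong. The first lay 5067 bp inside the border and the next peak outside lay 3610 bp beyond it. The row therefore continues past the window, and its count here is cut by the border. The other groups of that size in the clusters were all in 19q13.43.

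The 19q13.31 cluster, the shortest window, had the largest share of strong peaks, with an interval that overlapped those of other clusters. Of its 24 peaks 14 were strong, 58.3% (38.8 to 75.5), at 20 strong peaks per Mb (10.9 to 33.6). It also had the lowest share of distances within 10 kb, 4 of 23, and its median pileup was 62.5 fragments (35 to 75). Its highest peak, at 44711439 to 44711968, had a fold of 39.8 (33.3 to 47.1) and a width of only 530 bp, and none of its peaks exceeded 776 bp. The strong peaks of this cluster were narrow, with a median width of 513 bp (439 to 657).

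The 19q13.41-q13.42 cluster had the highest folds among strong peaks. Its 33 strong peaks had a median fold of 32.4 (25.9 to 37.6), against 18.2 to 20.8 in the other clusters and 19.6 in the rest of the chromosome. Of these peaks 19 had a fold of 30 or more, 57.6%, which is 11.2 per Mb against 2.65 in the rest of the chromosome. The highest, at 53073243 to 53074026, had a fold of 50.1 (43.0 to 58.1) and had rank 9 on the chromosome. It was followed by 53934926 to 53935446, with a fold of 47.6 (40.5 to 55.5), and by 52598832 to 52599342, at a fold of 46.7 (39.7 to 54.7). Both of these were narrow, at 521 and 511 bp, and each had another summit within 1 kb. The median width of the strong peaks was 623 bp (477 to 800).

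The 19q13.43 cluster, at the end of the long arm, was the richest in peaks and the nearest to the rest of the chromosome in density and spacing. It held 155 peaks, 67.4 per Mb (57.2 to 78.9), of which 47 were strong, 30.3% (23.6 to 38.0). Its median neighbour distance of 5522 bp (4212 to 9960) was the shortest of the 6. Its peaks were unevenly placed, with a distance of 177639 bp between summits at 57276680 and 57454319 and a group of 18 peaks, 6 of them strong, from 58858494 to 58920583. The highest peak, at 59030288 to 59031690, had a fold of 46.9 (39.6 to 55.2) and a width of 1403 bp. The next, at 59010491 to 59011096, had a fold of 46.6 (39.4 to 54.7) and a width of 606 bp. The widest peak of all 6 clusters lay here too, at 58693898 to 58695475, with 1578 bp and a fold of 33.1 (27.2 to 39.9).

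**Figure D5:**
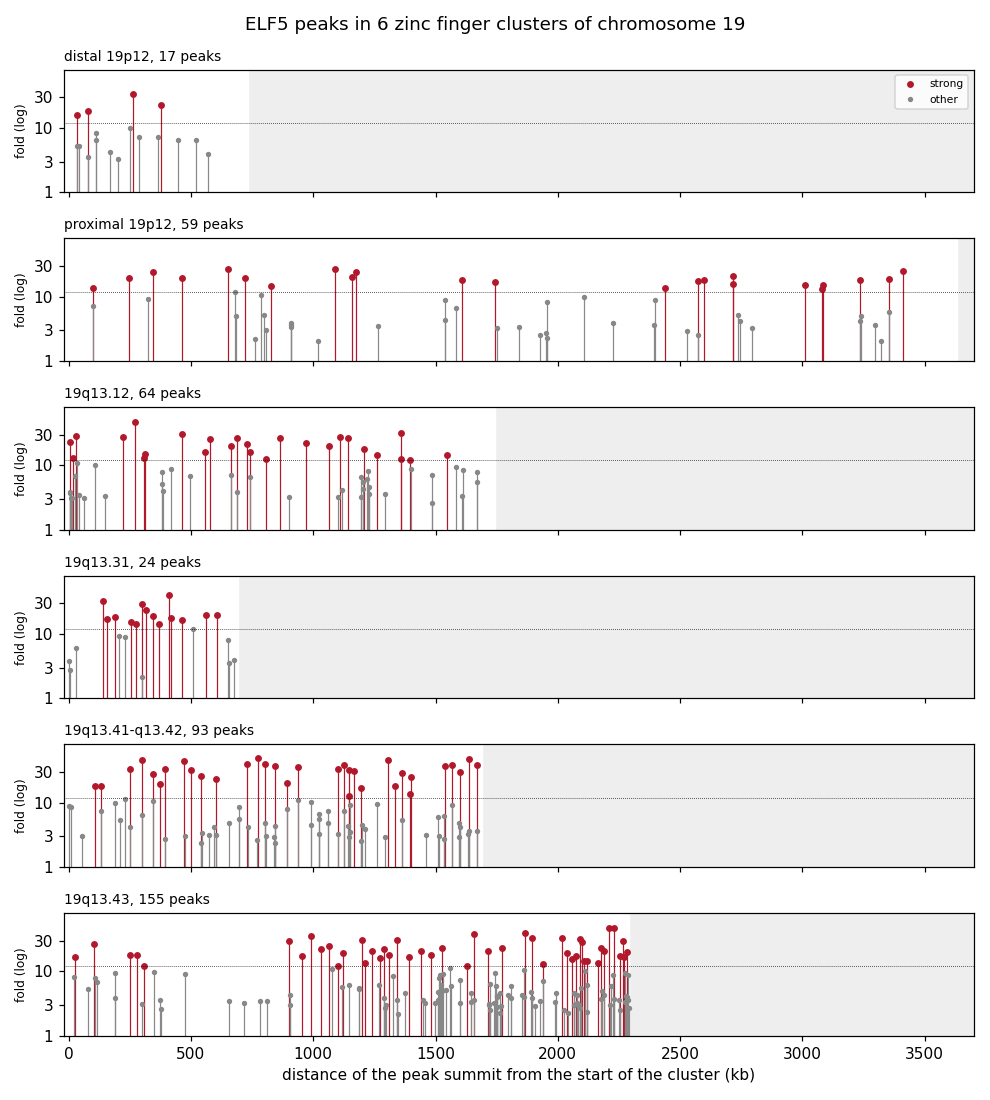
Fold enrichment of each peak (log scale) against the distance of its summit from the start of its cluster in kb, 1 row per cluster; red marks strong peaks, the dotted line their threshold of 11.99, and the grey area lies beyond the end of the window. Strong peaks occur in every window but are unevenly placed along it. Their density runs from 5.41 per Mb in distal 19p12 and 6.32 per Mb in proximal 19p12 to 20.4 per Mb in 19q13.43.

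The borders of the windows did not cut through peaks, and no peak overlapped a window without having its summit in it. The 12 peaks just inside the borders had a median fold of 8.08 (range 2.75 to 38.1) and a median width of 337.5 bp. On the outside 11 borders had a next peak, with a median fold of 8.96 (range 1.37 to 66.3) and a median width of 309 bp. The lowest of these folds belongs to a peak across the centromere, 3232776 bp from the end of proximal 19p12, in a centromeric band that the rest leaves out. The ranges on both sides of the borders overlapped in both measures.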

How the data were processed

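ELF5 ChIP-seq in T47D cells was analysed from the authors' deposited list of peaks, on the build hg19 per the file headers and, likewise, per the submitters' notes on processing. The track line names IDR and 1-3, which may mean replicates 1 to 3 or replicates 1 and 3. Aligner, caller, calling threshold, pooling of replicates, total reads and the handling of reads that map to several paralogs are, in the sources used here, not given, and neither is whether the replicates were separate cultures. The protocol text names antibodies to other factors, while each ChIP sample lists its own. The authors' deposited fold per peak is a ratio with no unit in the file. Their deposited −log10 p and −log10 q were used as given, and the authors' deposited score, the whole part of 10 times −log10 p, was not needed. These values are the authors', and served to describe and rank peaks within this list.

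Pileup and background were recovered as whole pileups times a factor of 0.910, with a pseudocount of 1 and a Poisson tail, which gave all 115384 p-values within 0.001 of −log10 p. 95 peaks had a second solution. The procedure was tested on simulated data. Counts and densities have exact Poisson intervals, shares Wilson intervals, density ratios exact conditional intervals, differences of shares Newcombe intervals, and medians order-statistic intervals. The interval of a fold holds the background fixed. Bands came from circlize 0.4.16. The rest of chromosome 19 leaves out the centromeric bands, which held 6 peaks, from densities, medians and distances. Assembly gaps were not taken out. Distances were taken between neighbours in the same window or stretch. No test was run. Described peaks are the 3 highest by fold and the widest of each window. The windows, lists and measures were chosen with earlier results of these data known. The alternatives were other borders, thresholds, backgrounds and definitions of the rest. Computation ran in Python 3.11.15 (scipy 1.17.1, numpy 2.4.6, matplotlib 3.10.9, pandas 2.3.3) and R 4.3.3.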

Additional observations from a re-analysis of the deposited data

How the results depend on the processing

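Of 95 alternative values none changed direction, 83 stayed within the 95% counting interval of the value reported and 12 did not. Among the 83 are those with membership by 1 bp of overlap, which chose the same 412 peaks and so could not move. For the motif only the share in clustered genes was followed, so no change of direction could be recorded. The density ratio of clusters to rest, 0.329, was 0.383 with the highest 50% of folds, 0.371 with the rest taken without 19p13.3 and 0.441 over a background above the list's median of 3.11 fragments. Over that background the ratio of median widths, 1.37 (1.21 to 1.63), was 1.19 (0.881 to 1.64), an interval that includes 1, the difference in the share of strong peaks, 20.8 percentage points, was 15.9, and the ratio of median distances, 3.93, was 2.13. With the strongest 5% as strong the difference was 13.6 points. As GGAA the motif was found in 99.5% of promoters of clustered zinc finger genes, against 94.8% on the rest of chromosome 19 and 95.1% of all. With nearly every promoter holding the motif in that form, there was little room for a contrast. As ACCGGAAGT it was found in 4.81% (2.63 to 8.62), against 1.84% (1.17 to 2.89) and 1.48%, and the intervals of both chromosome 19 sets overlap. Leaving out each cluster in turn, the density ratio ran from 0.260 to 0.424, the width ratio from 1.29 to 1.47, the fold ratio from 1.56 to 1.95, the difference in strong share from 19.4 to 24.0 points and the distance ratio from 3.23 without the proximal 19p12 cluster to 7.12 without the 19q13.43 cluster. Taking the rest without 19p13.2, without the variable bands or with the centromeric bands was added after seeing the data. Replicates could not be left out in turn. No paired analysis was possible because replicates have no values of their own. The recovered pileups limit the ranking of single peaks, and a median pileup of 15 in the rest of the chromosome leaves weak peaks unranked.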
